A study of Mus musculus with 6 samples.

Results

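The TGF-beta receptors, SMADs and ID genes described here are 10 genes, chosen by symbol from the 53735 genes of the expression table: the ligand gene Tgfb1, the receptor genes Tgfbr1, Tgfbr2 and Eng, the feedback genes Smad6, Smad7 and Skil, and the ID genes Id1, Id2 and Id3. All 10 were found, each in 1 row. Their transcripts were measured by RNA sequencing in leukemia stem cells, the cells of a leukemia that can regrow it. Per the labels, these were taken from male C57 mice on day 13 after leukemia cells had been transplanted. The mice had no treatment. Bone marrow gave 3 libraries and liver gave 3. The labels name no leukemia type, sorting gate or number of mice, and they list the libraries under technical replicates. A p-value here therefore sets the tissue difference against the spread within these 3 and 3 libraries, and that spread may be technical in part.

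TGF-beta1 is secreted in a latent form and, once freed, joins the type II receptor TGFBR2 to the type I receptor TGFBR1, which phosphorylates SMAD2 and SMAD3. BMPs, a related group of ligands, act through SMAD1 and SMAD5, and endoglin, the product of Eng, is a co-receptor best known from endothelium and also carried by blood stem and progenitor cells. SMAD6, SMAD7 and SKIL are induced by the pathway and restrain it. ID proteins are short helix-loop-helix proteins without a DNA-binding region. They bind E proteins such as TCF3 and TCF12 and keep them off DNA, and BMP signals raise them while TGF-beta can raise or lower them. In marrow, TGF-beta is known as a brake on stem cell division.

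Depth was 15.4 to 18.5 M reads in bone marrow and 9.73 to 13.8 M in liver. The labels give every library as male, but Xist, an RNA of female cells, stood at 4860 and 6229 normalized counts in replicate 1 of bone marrow and liver and at 4.28 and 1.42 in replicate 2. Replicate 3 lay between them in both tissues, at 2486 and 2425. Genes of the Y chromosome ran the opposite way. Their summed level in replicates 1, 2 and 3 was 145, 2987 and 1553 normalized counts in bone marrow. In liver it was 0, 2675 and 1634. In each tissue, replicate 3 thus held both Xist and Y-linked RNA at levels between those of replicates 1 and 2. Among the 14298 genes tested, the value of replicate 3 lay between those of replicates 1 and 2 for 43.6% in bone marrow and 50.8% in liver. Whether replicate 3 is independent of replicates 1 and 2 or a mix of them was not tested. Values without both replicate 3 libraries are therefore given beside the main results.

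The cell label was compared with marker genes. Kit stood at 419 to 658 normalized counts over the 6 libraries, Cd34 at 1048 to 2148, Hoxa9 at 2210 to 2841, Meis1 at 1266 to 2469 and the blood cell gene Ptprc at 2839 to 3600. The hepatocyte genes Alb and Ttr and the endothelial genes Cdh5, Emcn and Robo4 had 0 reads in all 6 libraries. A count of 0 among 85.0 M reads allows up to 0.0353 CPM (3 reads), counting error only. Other genes of the same marker lists were present. The hepatocyte genes Apoa1 and Hp had means of 4194 and 41.1 in bone marrow and 2680 and 169 in liver. Hp did not overlap between tissues and did not pass (log2 fold change 1.77, adjusted p = 0.15, limma). The endothelial genes Pecam1, Vwf and Tie1 had means of 678, 582 and 247 in bone marrow and 965, 597 and 325 in liver.

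Of the 10 genes, Id2 and Eng were lower in liver and no gene was higher by the test used. The test was limma on log2(normalized count + 1), with an adjusted p under 0.05 as the threshold. It covered the 8 genes that averaged 10 normalized counts or more over the 6 libraries. Id3 and Smad6 were below that level. The 2 called among 8 stand beside 1.01% called among all genes tested, with 0.594% lower and 0.42% higher in liver. The libraries of the tissues did not overlap for 6 of the 8 (1 higher, 5 lower), against 22.3% of all genes tested (11.4% higher, 10.9% lower). At an unadjusted p under 0.05 there were 1 higher and 5 lower of the 8, against 7.65% higher and 8.04% lower (15.7% in all) over all genes. The median log2 fold change of the 8, liver minus bone marrow, was -0.40, and that of all genes tested was -0.01. The 10 genes were chosen with earlier results of these data known, so these shares describe the set and do not test it. A tissue difference in bulk RNA cannot tell fewer cells of a type from less RNA per cell.

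**Figure D1:**
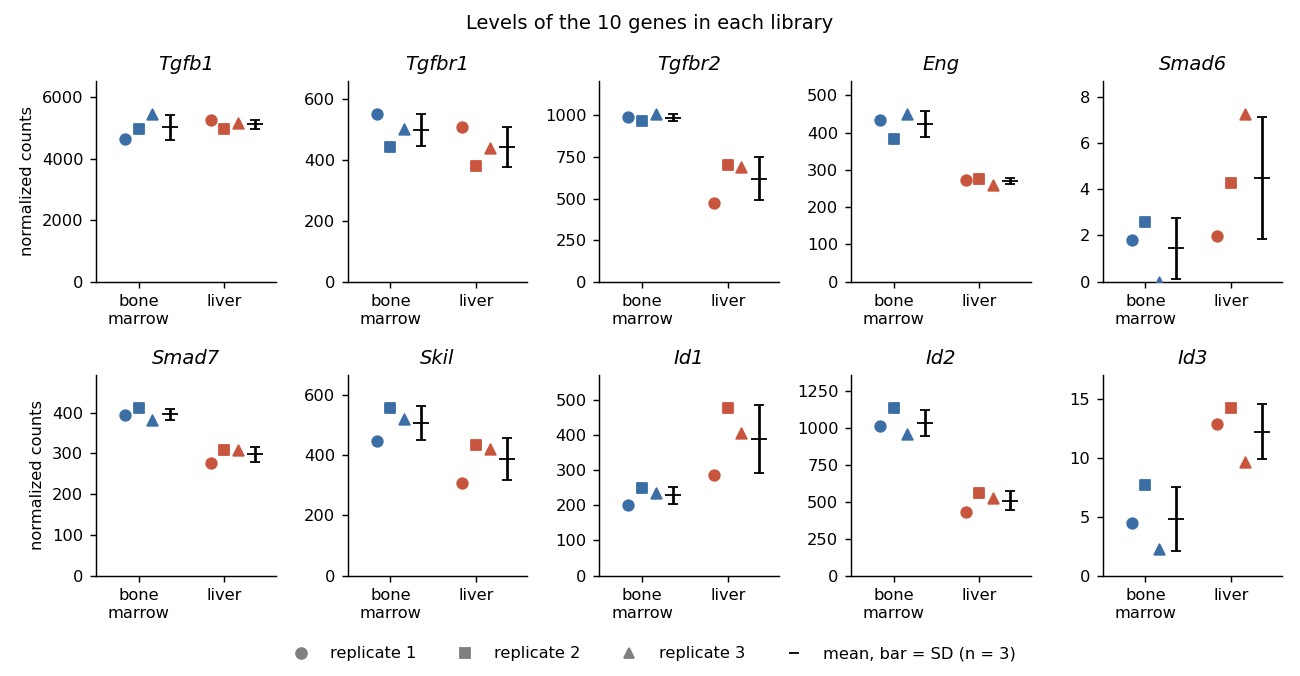
Normalized counts of each gene (y axis, from 0, its own scale per panel) in the 3 bone marrow libraries (blue) and the 3 liver libraries (red), with symbols for the replicate number and the mean with its SD (n = 3). Id2, Eng, Tgfbr2, Smad7 and Skil are lower in every liver library, Id1 and Id3 are higher, and Tgfb1, Tgfbr1 and Smad6 overlap.

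The ligand gene Tgfb1 was the most abundant of the 10 and did not differ. It lies on chromosome 7 (25687002 to 25705077, plus strand, GRCm38). Its level was 4631, 4967 and 5429 normalized counts in bone marrow replicates 1, 2 and 3 and 5244, 4959 and 5150 in liver. The liver values all fell inside the bone marrow range. The log2 fold change was 0.03 ± 0.07 (SE; 95% interval -0.12 to 0.19, adjusted p = 0.86), and it rested on 3489 to 7302 reads per library. Its sign depended on 1 library, with -0.02 without bone marrow replicate 1.

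Among the receptor genes Eng fell, Tgfbr2 was lower in every liver library without passing, and Tgfbr1 overlapped. Eng (chromosome 2, 32646595 to 32682669, plus strand) stood at 435, 383 and 448 normalized counts in bone marrow and at 274, 274 and 260 in liver. The liver libraries lay close together and below all bone marrow libraries. The means were 422 ± 34.6 and 269 ± 8.03 (SD, n = 3 each), and the log2 fold change was -0.64 ± 0.11 (SE, adjusted p = 0.046). This call was near the threshold. It was kept without liver replicate 1 (adjusted p = 0.040) and lost when liver replicate 2 (0.077) or 3 (0.23) or 1 of bone marrow replicates 1, 2 and 3 (0.18, 0.12 and 0.26) was left out, while the fold change stayed between -0.60 and -0.71. Over all 20 alternatives 10 kept the call, with adjusted p between 0.00076 (DESeq2) and 0.87. Without both replicate 3 libraries it was -0.57 with an adjusted p of 0.87. Eng shares 61 exon bases at its end with Fpgs on the other strand, and the library chemistry does not mark strand. Fpgs itself ranged from 447 to 533 normalized counts over bone marrow libraries and from 411 to 559 over liver libraries, a log2 fold change of -0.04.

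Tgfbr2 (chromosome 9, 116084293 to 116175360, minus strand), the gene of the receptor that binds TGF-beta first, stood at 992, 964 and 1005 normalized counts in bone marrow and at 472, 699 and 688 in liver. The bone marrow libraries agreed closely, and liver replicate 1 lay below the other liver libraries. The log2 fold change was -0.69 ± 0.15 (SE; 95% interval -1.05 to -0.34, adjusted p = 0.090). Without liver replicate 1 it was smaller, -0.51, and passed (adjusted p = 0.023). With the replicate number as an added term Tgfbr2 also passed (adjusted p = 0.033, limma). DESeq2 on the reads recovered from the table gave an adjusted p of 0.0017 with all libraries, the lowest of 20 alternative analyses, in which it reached 0.87 without both replicate 3 libraries. Tgfbr1 (chromosome 4, 47353222 to 47414931, plus strand), the signalling partner, stood at 549, 443 and 502 in bone marrow and 509, 380 and 440 in liver. In both tissues replicate 1 was the highest and replicate 2 the lowest. Its log2 fold change of -0.17 ± 0.14 (SE; 95% interval -0.49 to 0.15) did not pass (adjusted p = 0.60), and it was -0.07 without liver replicate 2 and -0.28 without liver replicate 1. That one receptor gene passed and another did not was not tested as a difference between them.

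Sequences before the RefSeq start sites of the 3 receptor genes and of Id2 are shown because these genes form 1 receptor complex or carry the largest change. RefSeq (GRCm38.p6) had an entry for 7 of the 10 genes. Capitals mark the SMAD-binding core site CAGAC or its reverse GTCTG, and the GC-rich SMAD site GGCGCC, searched on both strands and not overlapping here. The receptor windows cover the 250 bases before the start site, at chr2:32646345-32646594 (Eng, plus strand), chr9:116175364-116175613 (Tgfbr2, minus) and chr4:47352972-47353221 (Tgfbr1, plus). For Id2 only the 89 bases of its window outside annotated exons are given (chr12:25096254-25096342, minus), from 250 to 162 bases before the RefSeq start. That start lies inside the longer GENCODE gene given below, so the stretch lies in an intron of its longest transcript. No annotated exon lies in any of the 4 stretches.
Eng: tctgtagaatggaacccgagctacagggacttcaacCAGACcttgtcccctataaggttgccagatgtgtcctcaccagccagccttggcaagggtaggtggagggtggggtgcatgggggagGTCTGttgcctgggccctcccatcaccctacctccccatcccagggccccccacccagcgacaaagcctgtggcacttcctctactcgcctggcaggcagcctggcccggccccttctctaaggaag
Tgfbr2: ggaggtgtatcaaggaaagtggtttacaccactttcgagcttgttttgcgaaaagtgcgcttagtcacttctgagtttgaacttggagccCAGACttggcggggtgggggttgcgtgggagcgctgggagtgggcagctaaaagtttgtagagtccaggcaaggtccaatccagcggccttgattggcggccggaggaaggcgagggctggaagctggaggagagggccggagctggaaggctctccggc
Tgfbr1: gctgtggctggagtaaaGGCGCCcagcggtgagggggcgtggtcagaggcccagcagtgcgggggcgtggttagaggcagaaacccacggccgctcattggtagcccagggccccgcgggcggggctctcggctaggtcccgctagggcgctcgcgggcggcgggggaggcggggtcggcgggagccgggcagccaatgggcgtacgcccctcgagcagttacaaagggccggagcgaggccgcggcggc
Id2: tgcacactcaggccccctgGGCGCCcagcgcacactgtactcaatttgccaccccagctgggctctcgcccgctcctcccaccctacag

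The Eng window held 2 core sites, that of Tgfbr2 held 1 and the printed window of Tgfbr1 held 0, where 42.2% of all 32851 RefSeq windows of this length held at least 1. GGCGCC stood once in the printed Tgfbr1 window (9.59% of all windows) and once in the Id2 stretch (2.73% of all stretches at that distance). The palindrome GTCTAGAC was in none of the 4 (0.167% of all windows of 250 bases). The GC content of the Tgfbr1 window was 74.8%, against 62.4% for Eng and 58.4% for Tgfbr2. RefSeq gives Tgfbr1 another window further along the gene (chr4:47385966-47386215), not printed, which held 1 core site at a GC content of 52.8%. These matches describe the letters of the windows and were not linked to binding in these cells.

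**Figure D2:**
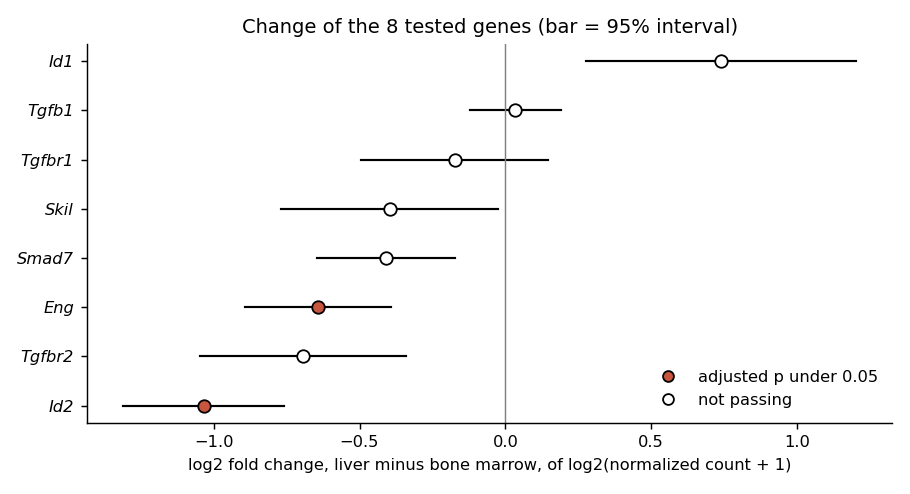
Log2 fold change of the 8 tested genes (x axis, liver minus bone marrow, on the log2(normalized count + 1) scale), with 95% intervals; filled points passed at an adjusted p under 0.05. Id2 (-1.03) and Eng (-0.64) are filled, Tgfbr2 (-0.69) lies between them with a wider interval, and Id1 (0.74) is the largest positive change.

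The feedback genes with measurable levels were lower in every liver library, and neither passed. Smad7, the inhibitory SMAD that blocks the type I receptor, stood at 394, 411 and 383 normalized counts in bone marrow and 277, 308 and 309 in liver. Every liver library was below every bone marrow library. The means of 396 ± 14.1 and 298 ± 18.7 (SD, n = 3 each) gave a log2 fold change of -0.41 ± 0.10 (SE; 95% interval -0.65 to -0.17, adjusted p = 0.12). Smad7 passed in none of the 20 alternative analyses, where its fold change lay between -0.49 and -0.36. It lies on chromosome 18 (75367529 to 75395935, plus strand).

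Skil, whose product SnoN is a co-repressor bound to SMADs, stood at 446, 557 and 520 in bone marrow and 307, 435 and 423 in liver. Replicate 1 was lowest in both tissues, and the highest liver library lay just under the lowest bone marrow library. Its log2 fold change was -0.40 ± 0.16 (SE, adjusted p = 0.29), and without liver replicate 1 it was -0.24. Skil lies on chromosome 3 (31095058 to 31122577, plus strand). Smad6, the inhibitory SMAD of the BMP branch, was near the floor. It had 5 reads over the bone marrow libraries and 11 over the liver libraries, a ratio per depth of 3.13 with a 95% counting interval of 1.00 to 11.5. Per library it stood at 1.80, 2.57 and 0 normalized counts in bone marrow and 1.98, 4.26 and 7.22 in liver, so the tissues overlapped. The gene lies on chromosome 9 (63953076 to 64022059, minus strand).

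Of the ID genes Id2 fell, while Id1 and Id3 had higher values in liver that did not pass or could not be tested. Id2 (chromosome 12, 25093799 to 25097140, minus strand), the ID gene known for its part in natural killer, innate lymphoid and dendritic cells, stood at 1013, 1132 and 960 normalized counts in bone marrow and at 434, 561 and 525 in liver. Every liver library was far below the lowest bone marrow library. The mean fell from 1035 ± 88.2 to 507 ± 65.8 (SD, n = 3 each), to 49.0% of the bone marrow level. The log2 fold change was -1.03 ± 0.12 (SE, adjusted p = 0.020), and the libraries held 395 to 1322 reads of the gene. The call was kept without liver replicate 1 (adjusted p = 0.0081) or 2 (0.024) and lost when liver replicate 3 (0.12) or 1 of bone marrow replicates 1, 2 and 3 (0.10, 0.087 and 0.13) was left out. The fold change stayed between -1.11 and -0.93 in these fits. Over all 20 alternatives the adjusted p ran from 4.2e-11 (DESeq2) to 0.83, and 14 kept the call. Without both replicate 3 libraries it was -1.12 with an adjusted p of 0.83, where 2 genes of the whole table passed.

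Id1 (chromosome 2, 152736251 to 152737410, plus strand), a direct BMP target in many cells, stood at 202, 249 and 235 normalized counts in bone marrow and 286, 476 and 407 in liver. All liver libraries were above all bone marrow libraries, and liver replicate 1 was the closest to them. The means of 229 ± 24.2 and 390 ± 96.5 (SD, n = 3 each) gave a log2 fold change of 0.74 ± 0.20 (SE; 95% interval 0.28 to 1.2), which did not pass (adjusted p = 0.14). Without liver replicate 1 it was 0.95 and passed (adjusted p = 0.025), and DESeq2 on the recovered reads gave 0.016 with all libraries. With the replicate number as an added term Id1 also passed (adjusted p = 0.031, limma). Over the 20 alternatives the adjusted p of Id1 ran from 0.016 to 0.88. Id3 (chromosome 4, 136143497 to 136145755, plus strand), which in other cells often follows Id1, was scarce. Its level was 4.49, 7.71 and 2.23 in bone marrow and 12.8, 14.2 and 9.63 in liver, also without overlap. These values rested on 17 and 31 reads, a ratio per depth of 2.6 with a 95% counting interval of 1.39 to 5.0. With no filter on low values the limma adjusted p of Id3 was 0.50.

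The levels of Id1 and Id2 were also set beside each other within each library. Levels of different genes were compared per length, as normalized counts per kb of annotated exon. In bone marrow the level of Id2 per kb was 2.39, 2.16 and 1.94 times that of Id1, and in liver it was 0.723, 0.561 and 0.614 times. The order of the 2 genes was thus the opposite in every library of the other tissue. The mean ratio was 2.16 ± 0.22 in bone marrow and 0.633 ± 0.0825 in liver (SD, n = 3 each), a log2 difference of -1.78. A two-sided exact permutation test gave p = 0.10, the smallest value that 3 against 3 libraries allow. This ratio was chosen after the values were seen, when Id1 and Id2 already separated the tissues in opposite directions. The outcome of the permutation test was thus fixed in advance, and it adds no support. The summed level of Id1, Id2 and Id3 per kb was 624 ± 51.2 in bone marrow and 551 ± 110 in liver, with overlapping libraries.

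**Figure D3:**
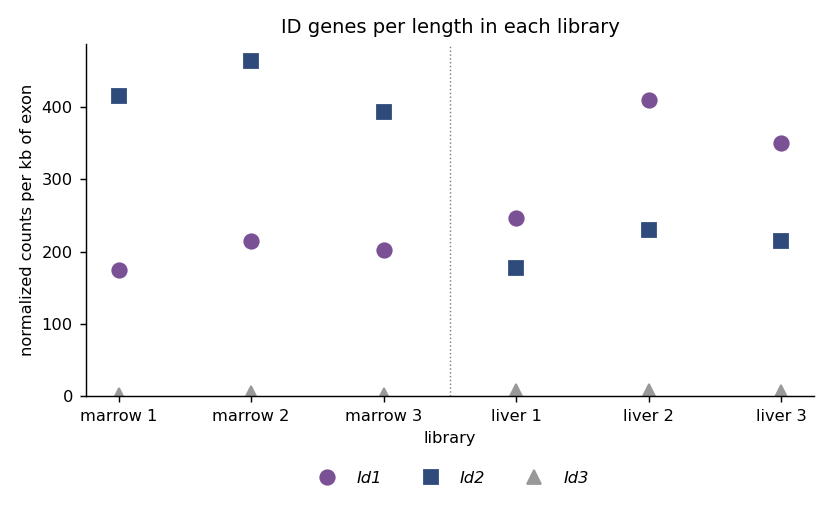
Normalized counts per kb of annotated exon (y axis, from 0) of Id1, Id2 and Id3 in each of the 6 libraries (x axis). Per kb, Id2 lies above Id1 in the 3 bone marrow libraries and below it in the 3 liver libraries, and Id3 stays below 8 in all. In normalized counts not divided by length, Id2 is above Id1 in all 6 libraries.

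Per kb, the order of the 10 genes in bone marrow was Tgfb1 (994 normalized counts per kb), Id2 (424), Id1 (197), Tgfbr2 (121), Eng (104), Smad7 (87.6), Tgfbr1 (76.2), Skil (52.4), Id3 (2.68) and Smad6 (0.454). No neighbours in that order overlapped between libraries. In liver the order was Tgfb1 (1015), Id1 (336), Id2 (208), Tgfbr2 (75.7), Tgfbr1 (67.7), Eng (66.5), Smad7 (66.0), Skil (40.1), Id3 (6.83) and Smad6 (1.40). There the libraries of Tgfbr2 and Tgfbr1, of Tgfbr1 and Eng, and of Eng and Smad7 overlapped. In bone marrow the levels of Tgfbr2 and Eng thus stood above that of Tgfbr1, and in liver the levels per kb of the 3 receptor genes overlapped. The exon lengths come from an annotation that need not be the one used for counting.

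The genes with the pattern most like Id2 over the 6 libraries were Hgfac, Cx3cr1 and the unnamed gene model RP23-396G1.3. Likeness was the root mean square difference of gene-centred log2 values, which was 0.0945, 0.0945 and 0.14 for these genes among 11441 compared. Hgfac, the gene of a protease that activates hepatocyte growth factor, had means of 722 and 338 normalized counts in bone marrow and liver, and Cx3cr1, a chemokine receptor gene, 367 and 196. For Eng they were P2rx4 (0.0299), Pmch (0.0663) and Cox16 (0.071). P2rx4, an ATP-gated ion channel gene, had means of 1884 and 1243.

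The other genes of the pathway gave 1 call. Outside the 10, the lists held 103 genes, of which 12 had 0 reads in every library and 69 could be tested. Furin fell and the other 68 did not pass, beside 1.01% called over all genes. The median log2 fold change of the 69 was -0.11. Their tissues did not overlap for 6 higher and 11 lower, a share close to the 22.3% over all genes. Furin encodes the protease that cuts the TGF-beta precursor, among many other proteins. It stood at 6758, 8203 and 7551 normalized counts in bone marrow and at 3920, 4540 and 4290 in liver, without overlap. Its log2 fold change was -0.82 ± 0.09 (SE, adjusted p = 0.017). The call was lost without bone marrow replicate 2 (adjusted p = 0.061) or 3 (0.14), without liver replicate 3 (0.11) and without both replicate 3 libraries (0.83), with fold changes between -0.89 and -0.75.

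Among the other genes of latent TGF-beta storage and activation, 9 were tested and did not pass. Nrros, whose product holds latent TGF-beta on myeloid cells, ranged from 3862 to 4466 over bone marrow libraries and from 3270 to 4395 over liver libraries. Of 20 further ligand genes 4 could be tested, and all were low: Gdf15 had means of 47.9 and 42.0 in bone marrow and liver, Gdf11 21.3 and 28.9, Bmp6 14.4 and 11.1 and Bmp7 11.4 and 10.2. Tgfb2 had at most 1.98 normalized counts in a library. The BMP ligands Gdf2 and Bmp10, which bind endoglin, had 0 reads in all libraries. Tgfb1 was thus the 1 ligand gene of this set at a level above 100 in these cells.

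Of 11 further receptor genes 6 were tested and 0 passed. The activin receptor gene Acvr2a had means of 50.6 and 29.5 in bone marrow and liver (log2 fold change -0.80, adjusted p = 0.30), without overlap. The co-receptor gene Tgfbr3 had 190 and 245 (0.36, adjusted p = 0.47). The values of Acvr2b and Acvr1b were -0.39 and -0.33. The BMP receptor gene Bmpr2 stood at 604 to 682 and 567 to 688, while Acvrl1, the type I partner of endoglin in endothelium, reached at most 2.97. The signalling SMADs overlapped in 5 of 5 tested genes: Smad4 (1204 and 1042), Smad2 (667 and 722), Smad5 (433 and 490), Smad3 (245 and 279) and Smad1, with log2 fold changes between -0.22 and 0.17. SMAD regulators gave 9 positive and 9 negative values and 0 calls. The ubiquitin ligase gene Nedd4l had means of 1638 and 925 (-0.85, adjusted p = 0.087), Smurf1 683 and 404 (-0.88, adjusted p = 0.29), the deubiquitinase gene Usp15 1625 and 1961 (0.27, adjusted p = 0.17) and Strap 2941 and 3250 (0.14, adjusted p = 0.27).

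Of 16 tested TGF-beta target genes 0 passed, with a median of -0.20. Itgae, the CD103 integrin gene, had the largest value, with 181, 492 and 319 normalized counts in bone marrow and 34.6, 156 and 72.2 in liver (log2 fold change -2.04, adjusted p = 0.15). Foxo1 (-0.60, adjusted p = 0.15), Junb (0.28, 0.16) and Nrip1 (-0.24, 0.18) were, with Itgae, the target genes with the smallest p. Of the 5 tested BMP targets besides the 10 genes 0 passed, among them Gata2 (-0.23), Hes1 (-0.34), the decoy receptor gene Bambi (0.20) and Runx2 (0.08). Without 1 library these values ran from -0.32 to -0.13, from -0.63 to -0.05, from 0.10 to 0.32 and from 0.02 to 0.15. Among the partners of ID proteins, Tcf3 had means of 2205 and 2043, Tcf12 1186 and 1009 and Tcf4 1195 and 1282, with log2 fold changes of -0.11, -0.23 and 0.09. The same list also held helix-loop-helix genes that are not E proteins and are not given here as ID partners. Of these, Mitf, a factor of mast cells, had 110 and 53.4 (-1.05, adjusted p = 0.097), and Tfeb 91.0 and 126 (0.48, adjusted p = 0.36).

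**Figure D4:**
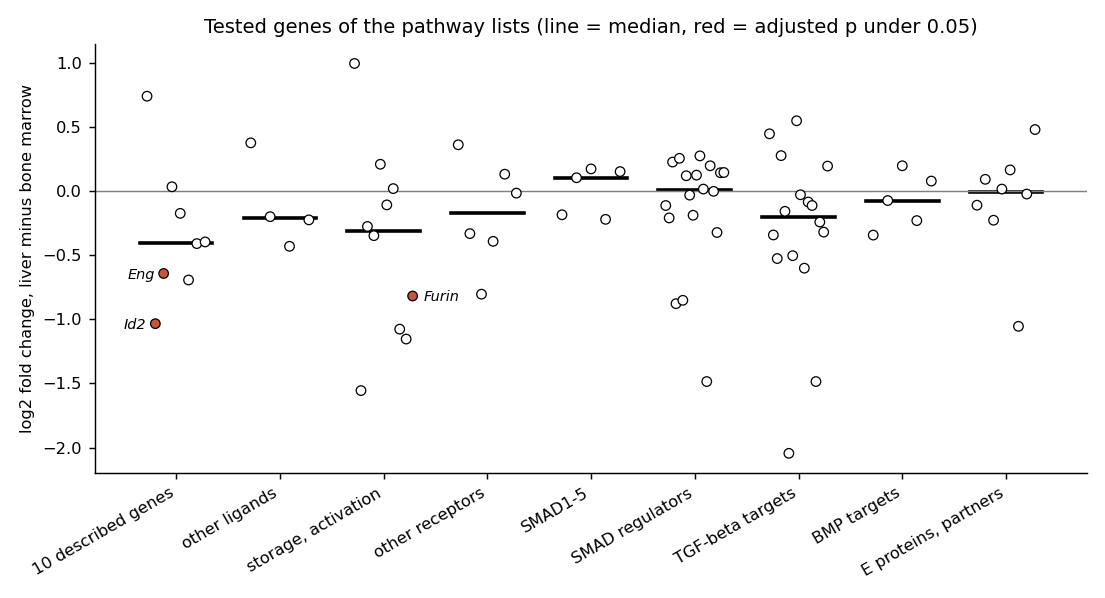
Log2 fold change (y axis, liver minus bone marrow) of each tested gene of the 10 described and of 8 pathway lists (x axis), with the median of each list as a line; red points passed at an adjusted p under 0.05. Id2, Eng and Furin are the red points, all below 0, and the medians of the lists lie between -0.40 and 0.10.

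Among markers of other blood lineages 1 erythroid and 1 megakaryocyte gene passed. Erythroid markers (12 of 12 tested) had a summed level of 22265 to 23764 normalized counts in the bone marrow libraries and of 16272 to 18344 in the liver libraries, and Car2 fell (-0.37, adjusted p = 0.040). Car2 alone had means of 11760 and 9122, the largest part of these sums, and 8 of the 12 genes overlapped. Megakaryocyte markers (9 of 10 tested) summed to 27269 to 32523 and 14391 to 32026, and Itga2b, a gene of megakaryocytes and early progenitors, fell (-0.62, adjusted p = 0.043). Itga2b alone had means of 18984 and 12418, and the other 8 tested genes overlapped. Immediate early and heat shock genes, which respond to cell isolation, summed to 104885 to 116466 and 121761 to 145145. Of these 22 genes Hspa1a, Hspa1b, Dnajb1, Atf3 and Hsp90aa1 rose. By sign 17 of the 22 were positive and 5 negative. The tissues did not overlap for 9 higher and 2 lower, against 11.4% higher and 10.9% lower over all genes tested. The 2 lower ones, Klf6 (-0.46, adjusted p = 0.093) and Fosb (-0.50, adjusted p = 0.13), did not pass. Over all genes tested, 0.42% were called higher and 0.594% lower in liver. Each of the calls among these 22 genes, and those of Car2 and Itga2b, was kept in 1 to 3 of the 6 fits without 1 library. The part of erythroid and megakaryocyte cells, of handling and of the shallower liver libraries in the values of Id2, Eng and Id1 was not tested. Thinning all libraries to the depth of the shallowest left Id2 at -1.04 (adjusted p = 0.019) and Eng at -0.61 (adjusted p = 0.075).

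For the other marker lists no gene passed. Endothelial markers summed to 1184 to 2713 in bone marrow and 1512 to 2952 in liver, with 3 of 14 at 0 everywhere, and the largest part came from Pecam1 and Vwf, which blood cells also express. Hepatocyte markers had 7 of 11 at 0 everywhere and summed to 2683 to 5699 and 2349 to 3286, nearly all from Apoa1. Stromal markers (4 of 11 at 0) summed to 415 to 842 and 290 to 417, macrophage markers (3 of 10 at 0, among them the Kupffer cell gene Clec4f) to 536 to 679 and 305 to 621, and lymphoid markers (4 of 12 at 0, among them Ncr1 and Cd3e) to 211 to 229 and 138 to 287. Progenitor and leukemia markers summed to 34381 to 34685 and 28970 to 33029.

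**Figure D5:**
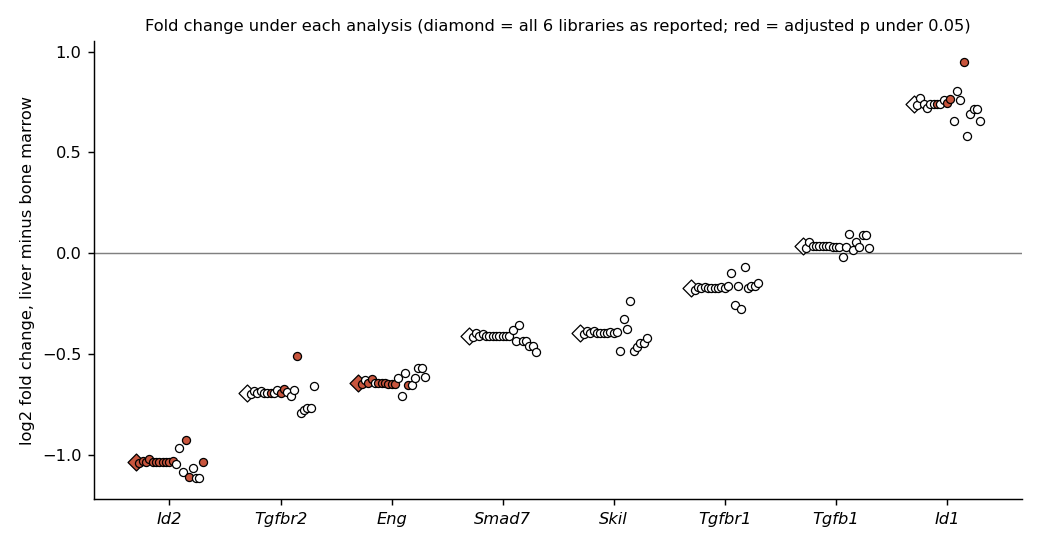
Log2 fold change (y axis, liver minus bone marrow) of the 8 tested genes (x axis) with all 6 libraries as reported (diamonds) and under 20 alternative analyses (circles); red symbols passed at an adjusted p under 0.05. The Id2 values lie between -1.12 and -0.93 and those of Eng between -0.71 and -0.57, while Tgfb1 is the 1 gene whose points lie on both sides of 0.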

How the data were processed

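RNA from 6 libraries was sequenced; per the labels' protocols, libraries came from a column RNA extraction, SMARTer low-input cDNA and Nextera XT tagmentation. The submitters' processing notes name STAR 2.6.0c, Trimmomatic 0.36, R 3.4.1, bcl2fastq 2.19.0 and DESeq2 1.16.1. Neither genome build, annotation nor counter is given in the sources used here. Per gene and library, the deposited file gives a signal value: by its name and those notes, the authors scaled read counts with DESeq2 size factors. All values (100% in each library, tolerance 0.01) were whole multiples of the library's smallest value, 0.744 to 0.898 normalized counts per read in bone marrow and 0.988 to 1.42 in liver, so reads were recovered.

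Values were fitted with limma 3.58.1 in R 4.3.3 (tissue as the only term, variance trend, two-sided, Benjamini-Hochberg over 14298 genes with a mean of at least 10). Fold changes are of log2(normalized count + 1), so that changes of low genes are understated. The script was tested on simulated data. edgeR 4.0.16 and DESeq2 1.42.0 were run on recovered reads, and edgeR called 135 genes. All 10 genes are named, with all passing genes of each pathway list or else up to 4 with the smallest p; genes outside this were chosen after their values were seen. Members and lists were chosen with earlier results of these data known. Gene positions and exon lengths are from GENCODE M21 (GRCm38), matched by symbol. Counting intervals are exact and cover counting error only. Figures used matplotlib 3.10.9.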

Additional observations from a re-analysis of the deposited data

How the results depend on the processing

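Of the 8 tested genes of the set, 7 kept their direction in all 20 alternatives run; Tgfb1 changed sign without bone marrow replicate 1 (-0.021; range without 1 library -0.021 to 0.093). Acvr1b, Smad5 and Bmp7, which had not passed, also changed sign: Acvr1b ranged from -0.70 to 0.14 without 1 library, Smad5 from -0.024 to 0.33 and Bmp7 from -0.43 to 0.19. Without both replicate 3 libraries Bmp7 had 0.049, with or without the replicate number as a term. The number of the 10 genes called was 2. It was 1 with quantile normalization, with no filter on low values and after thinning to equal depth, in each case Id2, and 4 with DESeq2 on the recovered reads. Leaving out 1 library gave 0 to 4 calls, with 4 without liver replicate 1 and 0 without liver replicate 3 or any 1 bone marrow library. Over all genes, 145 were called, with 6 to 427 without 1 library and 638 by DESeq2. Without both replicate 3 libraries the counts were 2 genes and 0 of the set. The causes of these changes were not tested.

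With the replicate number as a block, limma called 525 genes and 4 of the set (Id1, adjusted p = 0.031; Id2, 0.0039; Eng, 0.034; Tgfbr2, 0.033), and edgeR with the same block 555 and 4. With the block and without both replicate 3 libraries the counts were 15 and 0. The labels do not say that a number marks shared animals. Deviations of same-numbered libraries from their tissue means correlated across genes at 0.44, 0.40 and 0.058 for replicates 1, 2 and 3, and liver replicate 3 correlated more with bone marrow replicate 2 (0.15) than with its own number. Xist was high in both replicate 1 libraries, near 0 in both replicate 2 libraries and between them in both replicate 3 libraries. The summed level of Y-linked genes ran the opposite way, again with replicate 3 between replicates 1 and 2. Libraries of unlike number correlated at -0.38 (bone marrow replicate 1, liver replicate 2) and -0.44 (bone marrow replicate 2, liver replicate 1). The fit without the block was kept as the reported one because the labels name no shared animals. The correlation of replicate 3, near 0, cannot decide whether same-numbered libraries are paired. Replicate 3 lay between replicates 1 and 2 for 43.6% of tested genes in bone marrow and 50.8% in liver, so its deviations can be small. The thinning and the edgeR fit with the block were chosen after seeing the data. Depth limits Id3 and Smad6, which had 0 to 13 reads per library.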
